A study of Tulipa gesneriana with 15 samples.

Results

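The open-flower genes described here are 150 tulip genes whose levels were high while the flower was partly or fully open and lower both before and after. They were chosen by measured values. For each gene, a stage value was the mean of log2(FPKM + 1) over the 3 libraries of a stage, where FPKM counts sequenced fragments per unit of gene length and of library size. Genes had to average 5 FPKM or more in partial and in full blooming, which 18211 of the 76388 identifiers in the table did. Each identifier is called a gene here. Nothing given shows whether identifiers are separate genes or transcripts of the same gene, so counts of genes are counts of identifiers. The score was the lower of the values for partial and full blooming minus the highest of the values for buds, early senescence and late senescence, and the 150 genes with the highest scores were taken.

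Whole flowers of wild-type garden tulip, Tulipa gesneriana, were sampled, untreated, at 5 stages: as buds, then at partial and at full blooming, and last at early and at late senescence. Each stage has 3 libraries made from total RNA, 15 in all. Each library holds the RNA of every floral organ, and nothing in the labels says that the 3 libraries of a stage came from different plants, so p-values measure the spread between libraries, which may be technical. The table gives no gene name, position or function for any identifier, so the organ that carries a gene's RNA was not identified, and fewer cells of a type and less RNA per cell cannot be told apart.

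A tulip flower opens by growth of the tepals, its petal-like organs. In flowers generally, opening rests on the uptake of water and sugars, the loosening of cell walls and the expansion of cells, while colour and scent compounds are made and pollen is released. Senescence follows as cell contents are broken down and their nutrients moved to other organs, until the tepals wilt or fall.

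The depth of the libraries is unknown, since the table holds no read counts, and the FPKM of a library summed to between 861035 and 1094997. Across the 47326 genes tested, libraries of the same stage correlated at 0.87 to 0.97. Full blooming replicate 3 stood apart. Its correlations with replicates 1 and 2 of its stage were 0.89 and 0.87, while those replicates correlated with each other at 0.96. Its mean correlation with the bud libraries was 0.87, against 0.80 and 0.79 for replicates 1 and 2, and with the early senescence libraries it was 0.81, against 0.89 and 0.88. Where recomputed, results that rest on this library are given with and without it.

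The chosen genes were moderately abundant in the open flower. The median of their stage means was 6.70 FPKM at the bud stage, 35.7 at partial and 34.6 at full blooming. At early senescence it was 7.63 FPKM and at late senescence 6.11. The quartiles were 17.1 and 96.2 FPKM in partial blooming and 17.6 and 90.2 in full blooming. Of the 150 genes, 134 averaged 10 FPKM or more over both open stages, 37 reached 100 and 2 reached 1000. On the log2(FPKM + 1) scale the median gene was 2.25 higher in partial blooming than in buds and 1.64 higher in full blooming than in early senescence. Over all tested genes these medians were -0.13 and 0.08. The same values chose the genes, so the differences are a description and no test of them is given.

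**Figure D1:**
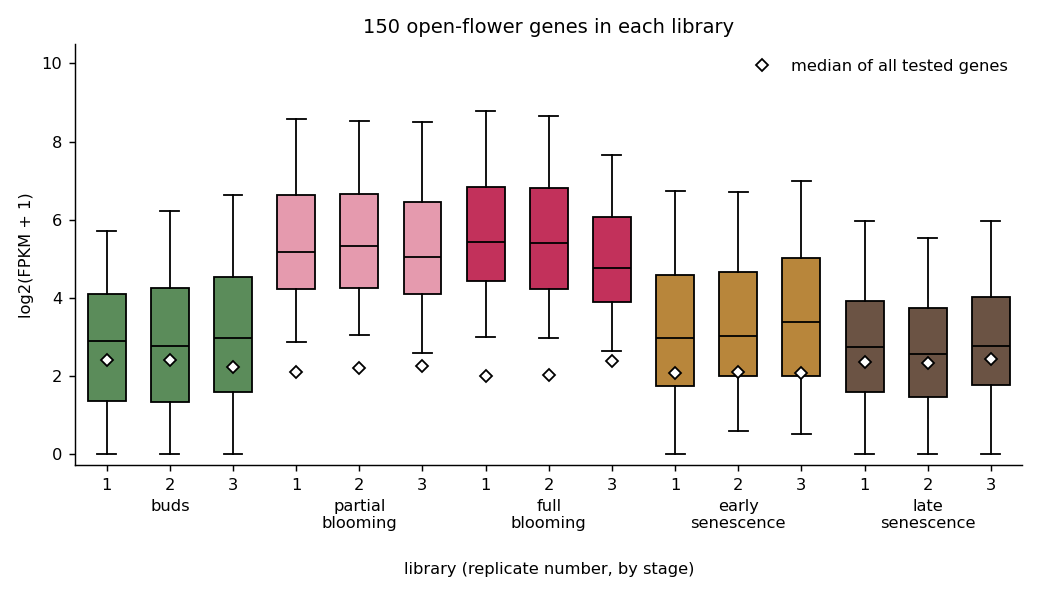
Levels of the 150 open-flower genes in each of the 15 libraries, on the log2(FPKM + 1) scale, in the order of the stages. Boxes span the quartiles with the median as a line, whiskers reach the 5th and 95th percentiles, and diamonds mark the median of all tested genes. The median of the chosen genes was 4.77 in full blooming replicate 3, the lowest of the 6 open-flower libraries, and 3.38 in early senescence replicate 3, the highest of the 9 others.

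Scores fell off quickly from the top of the list. The highest was 2.66 and the median 1.26 on the log2 scale, 14 genes scored 2 or more and 128 scored 1 or more. The last gene taken scored 0.915 and the first gene left out 0.914. That last gene averaged 7.14, 17.8, 14.6, 4.80 and 4.91 FPKM from buds to late senescence, in the order of the stages. The first gene left out was far more abundant, at 160.1, 302.9, 348.6, 158.7 and 54.1 FPKM in that order. Since 2074 of the 18211 genes had a score above 0, the list is the top of a continuous range.

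F01.PB6541 had the highest score. Its 3 bud libraries held 13.2, 12.9 and 19.95 FPKM, those of partial blooming 169, 105 and 103, and those of full blooming 401, 417 and 201. Early senescence followed with 3.27, 4.31 and 1.54 FPKM, and late senescence with 17.9, 18 and 19.9. Every open-flower library lay above every other library, and early senescence was the lowest stage. F01.PB21799 came next, with 34.9, 40.1 and 33.5 FPKM in buds, 344, 357 and 309 in partial blooming, and 278, 264 and 164 in full blooming. In early senescence it was at 33.5, 30.4 and 40.8 FPKM, and in late senescence at 24.2, 15.3 and 21.2. The open-flower libraries of this gene did not overlap the others either, but its early senescence libraries overlapped its buds.

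For 119 of the 150 genes, all 6 open-flower libraries lay above all 9 others, and without full blooming replicate 3 the count was 129. Of all tested genes, 1.14% met this condition. The rule had already selected for it, so nothing further is read from the difference. The other 31 genes overlapped between open flowers and the rest in at least 1 library.

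In a few of these genes, single libraries stood far from the others of their stage. The SD of log2(FPKM + 1) was over 1 in an open stage for 8 of the 150 genes, all of which overlapped, and 4 genes were listed at 0 in at least 1 open-flower library. The most uneven gene, number 79 by score and picked out after its values were seen, was at 0, 73.1 and 0 FPKM in buds, at 2.99, 39.3 and 5.01 in partial blooming and at 0, 52.8 and 46.2 in full blooming. It was listed at 0 in all 3 early senescence libraries and at 0, 11.1 and 0 FPKM in late senescence. Among all genes at 5 FPKM or more in both open stages, 7.06% had an SD over 1 in an open stage.

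**Figure D2:**
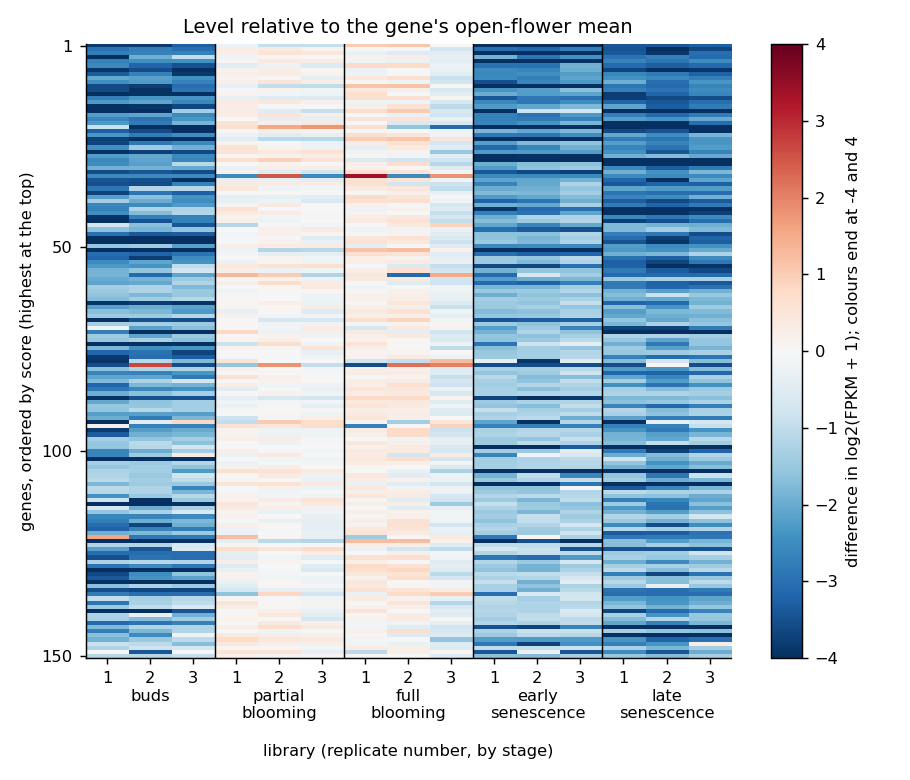
Each row is 1 of the 150 open-flower genes, ordered by score, and each column is a library. Colour is the difference in log2(FPKM + 1) from the gene's mean over the 6 open-flower libraries, red above and blue below, with colours ending at -4 and 4. Full blooming replicate 3 is paler or bluer than replicates 1 and 2 in most rows, and a few rows have an open-flower library far from the others of its stage.

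The score was also read in libraries left out of the choice, as a description with no test. The rule was applied to the 10 libraries of a pair of replicate numbers, and the score of the genes it took was read in the 5 libraries of the remaining number. With replicate 1 left out, 128 of 150 genes had a score above 0 in the replicate 1 libraries, with a median of 1.30. With replicate 2 left out, 136 did, with a median of 1.22. With replicate 3 left out, 108 did, and the median was 0.46. The lowest scores read in this way were -3.08, -3.98 and -5.69 with replicates 1, 2 and 3 left out. Each stage value here comes from a single library, so a score below 0 means that an open-flower library lay below a library of another stage. In the same libraries, 12.4%, 10.97% and 13.3% of all genes at 5 FPKM or more in both open stages scored above 0. Replicate 3 holds the full blooming library that stood apart. Lists chosen in this way shared 112, 115 and 117 genes with the 150.

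As a share of all expression, the 150 genes took up 0.394% ± 0.0962 of the bud total (SD over 3 libraries, as for the other stages). Their part was 2.40% ± 0.254 at partial blooming and 2.44% ± 0.828 at full blooming, then 0.654% ± 0.110 at early and 0.334% ± 0.0435 at late senescence. The wide spread in full blooming came with replicate 3, where the share was 1.5%, against 2.79% and 3.04% in replicates 1 and 2. A single gene, number 25 by score and likewise picked out after its values were seen, made up a large part of these sums. It was at 575, 1046 and 1260 FPKM in buds, at 8302, 7073 and 6385 in partial blooming and at 9285, 11387 and 4618 in full blooming. It was at 1629, 2230 and 2457 FPKM in early senescence and at 1650, 1198 and 1512 in late senescence. Without it, the other genes took up 0.292% ± 0.0598, 1.58% ± 0.130, 1.52% ± 0.464, 0.423% ± 0.0637 and 0.196% ± 0.0264 over the 5 stages in order.

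Full blooming replicate 3 had the lowest level of its stage in 133 of the 150 genes, or 88.7%. Among all tested genes it was the lowest of the 3 in 26.5%, and among genes at 5 FPKM or more in both open stages in 38.1%. Set against all 6 open-flower libraries, it was the lowest for 96 of the 150 genes. The median gene lay 0.65 lower in replicate 3 than the mean of replicates 1 and 2 on the log2(FPKM + 1) scale, whereas the median tested gene lay 0.22 higher. In 130 of the 150 genes, replicate 3 was higher than every library of buds and of both senescence stages. The rule used this library and had selected for such values, so nothing further is read from that count. Single libraries also stood out in other stages. Partial blooming replicate 3 was the lowest of its stage in 84 of the 150 genes (56.0%), against 24.5% of all tested genes and 26.7% of genes at 5 FPKM or more in both open stages. Early senescence replicate 3 was the highest of its stage in 95 genes, against 34.9% of all tested genes, and bud replicate 3 was the highest in 70, against 24.5%. Late senescence replicate 2 was the lowest in 56.0% of the list and in 56.3% of genes at 5 FPKM or more in both open stages. The median SD within full blooming was 0.44 for the chosen genes and 0.32 for all tested genes, and without replicate 3 these were 0.12 and 0.14.

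The next comparison asked whether the open-flower genes still changed between partial and full blooming. The rule takes the lower of both stages, so it does not set which is higher. It does bound how low the lower stage can be against buds and senescence. Genes outside the list do not have that bound, so the shares below do not compare like with like. A gene is called where limma's moderated test on log2(FPKM + 1), fitted over all 15 libraries, gave a Benjamini-Hochberg adjusted p under 0.05 over all tested genes. Of the 150 genes, 7 (4.67%) were called higher in full than in partial blooming, against 0.980% of all tested genes and 1.36% of genes at 5 FPKM or more in both open stages. Only 1 gene (0.667%) was called lower, against 0.699% of all tested genes. At an unadjusted p under 0.05, 19 genes were higher and 17 lower. The unadjusted counts, here and below, have no share over all genes beside them, so nothing further is read from them. The median change over the 150 genes was 0.02 on the log2 scale, with a range of -2.65 to 1.77, and 94 genes differed by less than 0.5. The 142 genes without a call are not shown to be equal in both stages.

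These counts depended on single libraries. The share of all tested genes called in the same fit is given only for the fit without full blooming replicate 3. No change particular to the 150 genes is read from the counts that lack such a share. With full blooming replicate 3 left out, the test called 19 of the 150 genes higher and 1 lower, and 2.39% and 3.73% of all tested genes. Without full blooming replicates 1 and 2 in turn, 1 and 0 genes were higher (11 and 14 at an unadjusted p under 0.05, limma), and without partial blooming replicates 2 and 3 in turn, 1 gene each. The count of lower genes was 2, 3 and 2 without early senescence replicate 3, late senescence replicate 2 and late senescence replicate 3, which enter through the shared spread. Fitted on the 6 open-flower libraries alone, the test called 0 genes higher, with 16 at an unadjusted p under 0.05. The median change was 0.27 in the mean of full blooming replicates 1 and 2 and -0.50 in replicate 3, each against the mean of partial blooming, and 99 and 37 of the 150 genes lay above that mean.

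**Figure D3:**
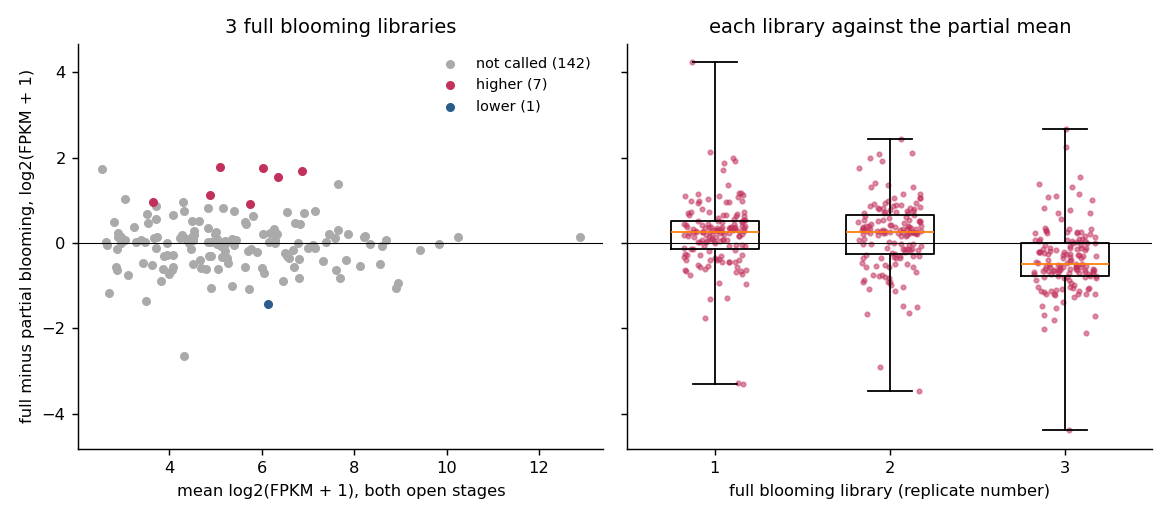
Left, the difference between full and partial blooming for each of the 150 genes against its mean level over both stages, both on the log2(FPKM + 1) scale, coloured by the limma call (7 higher, 1 lower, 142 not called). Right, the difference of each full blooming library from the mean of the 3 partial blooming libraries, 1 point per gene, with boxes at the quartiles and whiskers to the extremes; the median is below 0 in replicate 3.

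F01.PB3605 had the largest called rise. It was at 79.95, 78.9 and 37.7 FPKM in full blooming, against 24.9, 15.2 and 13.99 in partial blooming, and these libraries did not overlap. The change was 1.77 ± 0.34 (SE) on the log2(FPKM + 1) scale, with a limma adjusted p of 0.0168. In buds this gene was at 0.20, 0.36 and 0.27 FPKM, in early senescence at 0.95, 1.95 and 0.31 and in late senescence at 9.71, 6.35 and 8.44. Its call was lost without partial blooming replicate 2 or 3 (limma adjusted p of 0.0729 and 0.0858) and without full blooming replicate 1 or 2 (0.0817 and 0.0946), and over its 25 alternatives the adjusted p ran from 0.000233 to 0.126.

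F01.PB3869 had the next largest rise. It was at 129, 140.2 and 92.0 FPKM in full blooming, against 48.2, 30.3 and 28.6 in partial blooming. The change was 1.74 ± 0.29 (SE; limma adjusted p of 0.00854), and without full blooming replicate 2 the adjusted p was 0.0550, in a range of 0.000493 to 0.0651 over 25 alternatives. It was at 3.90, 2.90 and 3.24 FPKM in buds, at 1.33, 3.13 and 0.83 in early senescence and at 8.37, 7.77 and 11.9 in late senescence.

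F01.PB30530 was the gene called lower. It was at 46.1, 39.8 and 39.4 FPKM in full blooming, against 112, 135 and 100.3 in partial blooming, a change of -1.44 ± 0.21 (SE; limma adjusted p of 0.00310). It stayed past the threshold in all 25 alternatives. In buds it was at 10.8, 15.4 and 10.35 FPKM. In early senescence it was at 1.25, 1.64 and 2.92 FPKM and in late senescence at 0.15, 0.30 and 0.32, all under its bud libraries.

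The 7 genes called higher in full blooming had a median of 73.9 FPKM there and 35.7 in partial blooming. In buds their median was 1.41 FPKM, in early senescence 1.76 and in late senescence 8.17. Of these 7 genes, 5 were also called higher in late than in early senescence and the other 2 were called lower. Among all 464 tested genes called higher in full blooming, late senescence was called higher than early senescence in 14.2% and lower in 30%. No library is in both comparisons, but they share the estimate of the spread. Which genes were called higher in full blooming depended on single libraries, as given above. This overlap was not recomputed without full blooming replicate 3, and its difference from all genes was not tested. It was not computed for genes at 5 FPKM or more in both open stages. F01.PB3605 and F01.PB3869, both among the 5, had replicate 1 highest in partial blooming and replicate 3 lowest in full blooming. In early senescence both had replicate 2 highest. The 5 genes may therefore not be separate observations, which was not tested. F01.PB6541, the gene with the highest score, is not among the 7. It was 1.39 ± 0.32 (SE) higher in full than in partial blooming, just short of the threshold (limma adjusted p of 0.0510), and 2.34 ± 0.32 higher in late than in early senescence (adjusted p of 0.000308).

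The remaining comparisons asked how buds, early senescence and late senescence differed in the genes that were low in all of them relative to the open flower. The rule takes the highest of the 3 stages and so does not set their order. It does bound how high the highest can be against the open flower. Early senescence was the highest of the 3 in 81 genes, buds in 42 and late senescence in 26, and 1 gene was listed at 0 in all 3. From buds to late senescence, the genes with early senescence highest had medians of 5.49, 38.7, 34.8, 12.2 and 5.60 FPKM. The genes with buds highest had medians of 11.9, 47.0, 40.9, 5.72 and 4.84 FPKM in the same order. In the genes with late senescence highest these were 3.23, 20.4, 26.4, 2.76 and 7.78 FPKM. By order of level, 42 genes ran from early senescence through buds down to late senescence, 39 from early senescence through late senescence to buds, and 32 from buds through early to late senescence, with 2 genes left out for tied stages. These orders use stage means without a test, so small or overlapping differences count. They were not computed for other genes, so nothing particular to the list is read from them.

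Many open-flower genes fell between early and late senescence. In late senescence, 54 of the 150 genes (36.0%) were called lower than in early senescence, against 9.90% of all tested genes and 18.6% of genes at 5 FPKM or more in both open stages. Another 14 genes (9.33%) were called higher, against 19.2% of all tested genes. The median change was -0.53 over the 150 genes, with a median of -1.39 among those called lower, and 0.19 over all tested genes. With median-ratio scaling these medians were -0.65 and 0.09, and with quantile normalization -0.79 and -0.07. With these scalings 55 and 60 of the 150 genes were called lower, against 12.9% and 18.2% of all tested genes. The count of lower genes lay between 38 (without late senescence replicate 2) and 57 when each library was left out in turn. Shares of all tested genes are not given beside this range, so nothing particular to the list is read from it. The difference between the list and all genes was not itself tested.

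**Figure D4:**
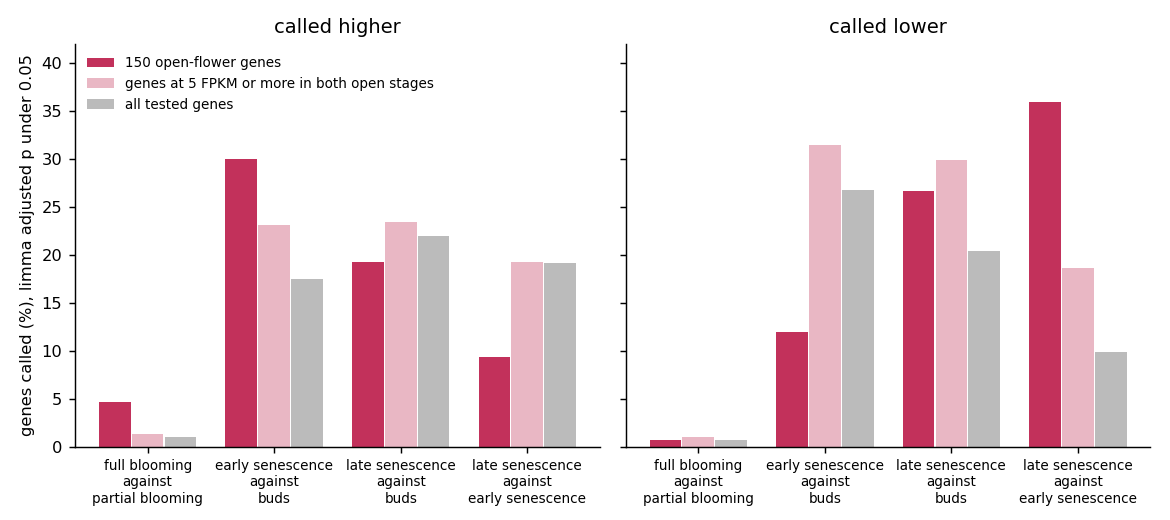
Share of genes called higher (left) and lower (right) in each of 4 comparisons, by limma at an adjusted p under 0.05, for the 150 open-flower genes, for genes at 5 FPKM or more in both open stages, and for all tested genes. Of the open-flower genes, 36.0% were called lower in late than in early senescence. The share was 18.6% of genes at 5 FPKM or more in both open stages and 9.90% of all tested genes. Called lower in early senescence than in buds were 12%, 31.5% and 26.8%, in the same order.

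Against buds, more of these genes were higher than lower in early senescence. In early senescence, 45 of the 150 genes (30.0%) were called higher than in buds, against 17.5% of all tested genes and 23.1% of genes at 5 FPKM or more in both open stages. Lower calls numbered 18 (12%), against 26.8% of all tested genes. The median change was 0.17 over the 150 genes and -0.21 over all tested genes. The scaling moved both medians, to 0.33 and -0.07 with median-ratio scaling and to 0.36 and -0.01 with quantile normalization. With these scalings 46 and 51 of the 150 genes were called higher, against 21% and 22.1% of all tested genes, and 16 and 15 lower, against 22.3% and 20.8%. Without early senescence replicate 3 the median change was 0.07 over the 150 genes and -0.21 over all tested genes. When each library was left out in turn, 36 to 51 genes were called higher and 15 to 21 lower. These ranges also lack shares of all tested genes, so nothing particular to the list is read from them.

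Late senescence differed from buds in both directions. In late senescence, 29 of the 150 genes (19.3%) were called higher than in buds, against 22.0% of all tested genes, and 40 (26.7%) were called lower, against 20.4% of all tested genes and 29.9% of genes at 5 FPKM or more in both open stages. These shares lie near those of other genes. The median change was -0.17 over the 150 genes and -0.03 over all tested genes. The comparisons with buds share the bud libraries, so they are not independent of each other. With full blooming replicate 3 left out, 51 genes of the list were called higher and 20 lower in early senescence than in buds, against 18.5% and 30.1% of all tested genes in the same fit. In late senescence against buds these were 33 and 45 genes, against 23.7% and 23.9%. In late against early senescence they were 17 and 56, against 23.8% and 11.3%.

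The 2 largest rises in late senescence over buds were in genes under 5 FPKM in every bud library. F01.PB6548 was at 98.5, 44.9 and 61.0 FPKM in late senescence, against 2.19, 4.18 and 4.49 in buds, a change of 3.87 ± 0.35 (SE; limma adjusted p of 2.18e-06). It was at 172, 156 and 156 FPKM in partial blooming, at 232, 280 and 102 in full blooming and at 66.0, 74.0 and 84.5 in early senescence. Both senescence stages lay far above buds and below all open-flower libraries. F01.PB16992 was at 25.4, 18.4 and 29.1 FPKM in late senescence, against 0.59, 1.28 and 0.57 in buds, a change of 3.80 ± 0.32 (SE; limma adjusted p of 1.15e-06). It was at 278, 330 and 242 FPKM in partial blooming, at 443, 398 and 165 in full blooming and at 105, 85.8 and 126 in early senescence. Its level fell in late senescence, by 2.08 ± 0.32 (SE) on the log2 scale against early senescence (limma adjusted p of 0.000694).

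The 2 largest falls were in genes at 24.5 FPKM or more in every bud library. F01.PB34052 was at 0.65, 1.22 and 0.57 FPKM in late senescence, against 205, 186 and 98.8 in buds, a change of -6.45 ± 0.42 (SE; limma adjusted p of 1.07e-07). It was at 742, 707 and 634 FPKM in partial blooming, at 470, 394 and 198 in full blooming and at 5.76, 7.27 and 20.2 in early senescence, and its early senescence libraries already lay under all of its buds. Full blooming replicate 3 lay below the highest bud library. F01.PB8507 was listed at 0 in all 3 late senescence libraries, against 24.5, 30.3 and 64.2 FPKM in buds, so it has no fold (limma adjusted p of 4.19e-07). This fall rests on values of exactly 0, which in an FPKM table may come from an estimate that failed. It was at 141, 156 and 144 FPKM in partial blooming, at 170, 226 and 63.5 in full blooming and at 35.7, 42.55 and 44.8 in early senescence. Here too, full blooming replicate 3 lay below the highest bud library. All 4 genes stayed past the threshold in the same direction in each of their 25 alternatives.

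**Figure D5:**
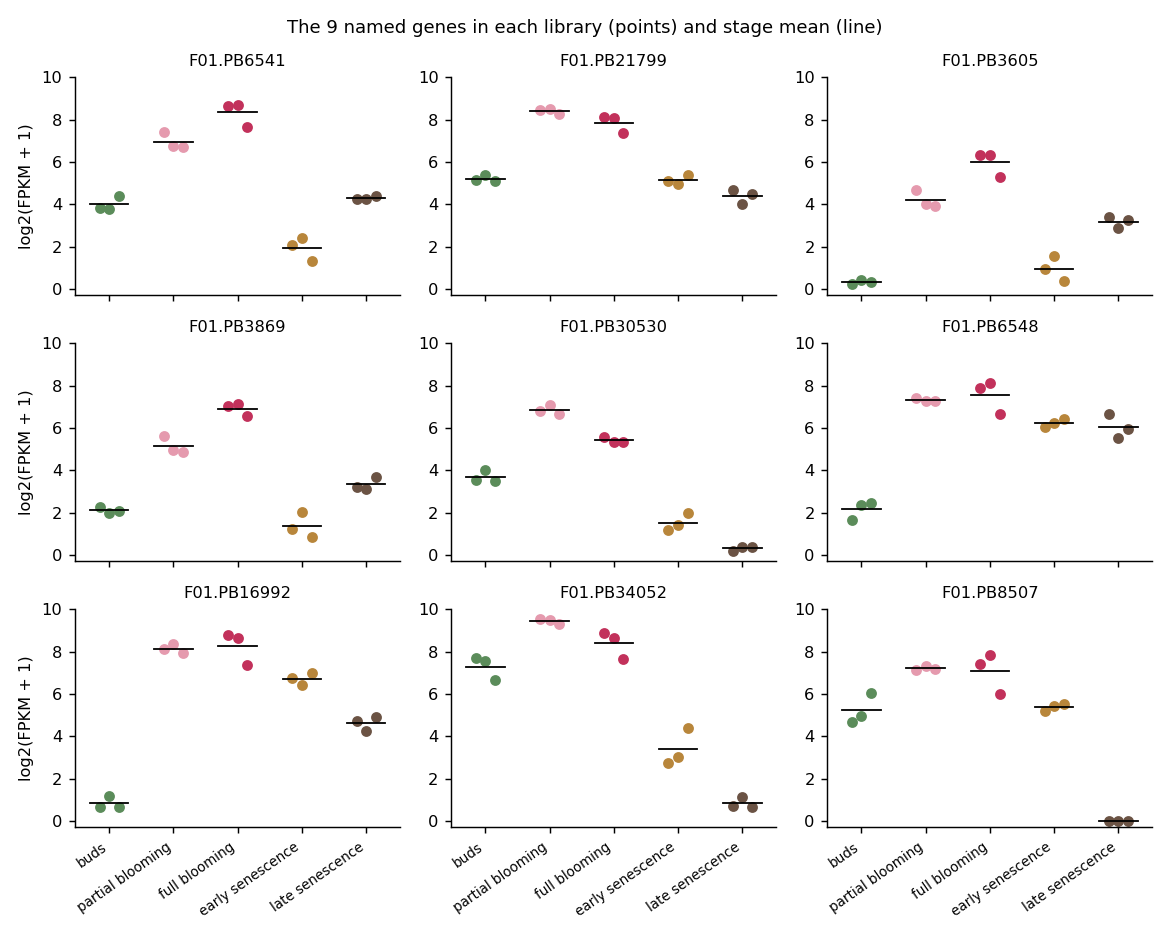
Levels of the 9 named genes in each library (points) with the stage mean (line), on the log2(FPKM + 1) scale, with the stages in order. In F01.PB3605 and F01.PB3869 the libraries of late senescence lay above those of early senescence, in F01.PB30530 full blooming lay below partial blooming, and F01.PB8507 was listed at 0 in late senescence.

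Some open-flower genes had very low values in 1 or more of the other stages. Stage means under 1 FPKM were found for 20 genes in buds, for 11 at early and for 22 at late senescence, and 2 genes were under 1 in all 3 of these stages. One of these was listed at 0 in 3 of its 6 open-flower libraries too. Of all genes at 5 FPKM or more in both open stages, 0.923% were under 1 in buds, 1.70% at early and 2.02% at late senescence. The rule favours genes with low values in these stages, so nothing is read from the difference. In all 3 libraries of a stage, 3 genes were listed at 0 in buds, 4 at early and 9 at late senescence. No gene of the list was under 5 FPKM on average in partial or full blooming, by the rule. In an FPKM table an exact 0 may come from an estimate that failed, so no absence is read from it.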

How the data were processed

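RNA was sequenced from whole tulip flowers, 3 libraries at each of 5 stages. The authors deposited 1 table of FPKM values, the unit being read from the table's name and values. The tools named in the submitters' processing notes are TopHat2 2.0.12, Bowtie2 2.2.3, DESeq 1.18.0 and HTSeq 0.6.1, with no role stated. For the reference, annotation and filters, nothing is given in the sources used here. Depth is unknown: low values fell on no common step (at most 3.48% of ratios of low values shared 1 value in any pair of libraries), so no counting interval is given.

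Columns were matched to libraries by the code in the labels. Genes at 1 FPKM or more in at least 3 libraries were tested (47326, all 150 members among them) with limma 3.58.1 in R 4.3.3 on log2(FPKM + 1) of all 15 libraries, two-sided, using its mean-variance trend. Fold changes on this scale understate low genes. The code was tested on simulated data. The members, comparisons and lists were chosen with earlier results of these data known. Gene lists were prepared but could not be matched, since no identifier is paired with a name. Named genes are the 2 with the highest score and, in full against partial blooming and in late senescence against buds, up to 2 called rises and 2 called falls of largest size without overlap. In the main fit, replicate numbers were not used to pair the libraries. Alternatives were other pseudocounts, filters and scalings, a replicate block, quality weights, no trend, a fit on both stages alone and leaving out each library.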

Additional observations from a re-analysis of the deposited data

How the results depend on the processing

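Of 414 values recomputed under alternatives, 391 kept their call or stayed within 1.5 times, 15 counts moved further, 8 single-gene calls were lost and 0 reversed. All moved counts were in full against partial blooming, as were the lost calls. Higher genes numbered 3 with a pseudocount of 0.1, 24 with library quality weights, 0 on the 6 libraries alone and 4 with the replicate block, against 7, and lower genes numbered 4 with a pseudocount of 5, 3 with a filter of 5 FPKM and 8 with quality weights, against 1. Quality weights called 5.49% of all tested genes higher and 9.5% lower, against 0.980% and 0.699% in the main fit. For the other settings listed here, the share of all tested genes called is not given. No change particular to the 150 genes is read from those counts. Leaving out each library gave 0 to 19 higher and 1 to 3 lower genes. The cause of these shifts was not tested. Same-numbered libraries of different stages deviated from their stage means with correlations of -0.37 to 0.37, over 0.1 in 7 of 30 pairs. For differently numbered libraries these were -0.41 to 0.43, over 0.1 in 13 of 60 pairs. As a set, same-numbered libraries were thus no closer. Whether some shared plants or batches was not tested. The rule kept between 121 (pseudocount of 5) and 147 (without late senescence replicate 2) of the 150 genes, and 122 without full blooming replicate 3. Without counts, the precision of low values is unknown.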

Other observations

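The same rule was applied to each of the 10 pairs of stages. Partial and full blooming ranked 4 by the number of genes with a score above 0, which was 2074, and 5 by the score of the 150th gene, and 128 genes scored 1 or more. For early and late senescence, 4884 genes had a score above 0 and 1179 scored 1 or more. Buds and partial blooming had 4437 and 247, and buds and late senescence, which are not neighbours in time, had 4346 and 305. For partial blooming and late senescence, 1177 genes had a score above 0 and 161 scored 1 or more. Full blooming and early senescence, which are neighbours, had 1885 and 47. The remaining 4 pairs had 705 to 1506 genes above 0 and 6 to 23 at 1 or more. The pairs share libraries, so the counts are a description.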
